A study of Homo sapiens with 8 samples.

Results

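Cytosolic ribosomal protein (RP) genes were the 77 protein-coding genes on chromosomes 1 to 22 of hg38 (GENCODE release 44) whose symbols are RPL or RPS with a number and in some cases a final A or L, RPSA, or RPLP0 to RPLP2. They were 77 of 19111 protein-coding genes on those chromosomes, and 46 of them encode proteins of the large ribosomal subunit and 31 proteins of the small one. Genes of the S6 kinase family were left out, and RP genes on the sex chromosomes were not analysed here. An origin was assigned to an RP gene when it overlapped the annotated gene body or the 2 kb on either side. By this rule the RP genes held 31 of the 30197 origins of WT cells, 36 of 33535 of ORC1Δ, 42 of 37813 of ORC2Δ, and 44 of 41332 of ORC5Δ cells. The tables of read counts held 38 of 42162, 42 of 44174, and 45 of 46467 origins at these genes.

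The origins come from SNS-seq, in which short nascent DNA, the first stretches of new DNA made where replication starts, is purified by size and by lambda exonuclease digestion and then sequenced. The cells were HCT116, a human epithelial line from a colon cancer, in a p53-/- background that all 4 lines share: the parental line (WT) and lines that carry a CRISPR–Cas9 deletion of ORC1 (ORC1Δ), ORC2 (ORC2Δ), or ORC5 (ORC5Δ). ORC, the origin recognition complex, helps to load the MCM2–7 helicase on chromatin, and the study asked where origins lie when a subunit of it is missing. There were 2 biological replicates per line and 8 samples, but a deposited list holds the peaks that both replicates share and a deposited table merges the replicates, so each line has 1 value without a spread, and no test between lines was run. All lines grew in McCoy's 5a medium, and the labels name no treatment and do not say whether a knockout line is 1 clone. The knockout lines had been kept in culture for long without the subunit. The files hold nascent DNA and no RNA, so neither the loss of the ORC subunits nor the level of RP transcripts nor cell markers could be read from them. Total reads in origins ranged from 6416892 to 8523971 per line and table, with a median of 110 to 137 reads per origin.

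RP genes are among the most highly transcribed genes of a growing cell. Each encodes a protein that joins ribosomal RNA in the small subunit, which reads the mRNA, or in the large subunit, which joins amino acids. The genes are short, have promoters that begin transcription at a pyrimidine tract, and many carry small nucleolar RNA (snoRNA) genes in their introns. Their transcripts belong to the terminal oligopyrimidine (TOP) class, whose translation follows growth signals.

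A few sequences show the kinds of DNA on which the results turn, all from hg38 and printed 5′ to 3′. The first comes from an RP origin that was up by 1.5-fold or more in ORC1Δ cells. It holds the central bases of the origin upstream of RPL36 (chr19:5673537-5673836, plus strand). Capitals mark stretches of 2 or more copies in a row of ATCC, in any rotation.
RPL36 origin 1: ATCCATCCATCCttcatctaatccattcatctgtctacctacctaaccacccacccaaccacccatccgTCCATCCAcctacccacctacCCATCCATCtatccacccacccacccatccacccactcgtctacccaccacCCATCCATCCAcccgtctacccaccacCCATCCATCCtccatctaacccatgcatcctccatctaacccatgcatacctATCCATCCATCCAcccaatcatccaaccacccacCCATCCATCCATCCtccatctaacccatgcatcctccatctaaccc
These capitals cover 25.7% of the window, which has 155 C and 7 G.

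The next windows come from the only RP origin that was down by 1.5-fold or more, downstream of RPS2 (chr16:1959955-1960254, minus strand), from the origin upstream of RPS16 (chr19:39436470-39436769, minus strand), which was among the strongest, and from the origin at the annotated start of RPL22 (chr1:6209542-6209841, plus strand), whose fold was below 0 in all 3 lines. The RPL22 origin lies at -303 bp from the annotated start but -10097 bp from the canonical start, where negative distances are upstream. It overlaps an exon of another gene, RNF207. Each window is shown on the strand with more G than C, and capitals mark runs of 3 or more G.
RPS2 origin 1: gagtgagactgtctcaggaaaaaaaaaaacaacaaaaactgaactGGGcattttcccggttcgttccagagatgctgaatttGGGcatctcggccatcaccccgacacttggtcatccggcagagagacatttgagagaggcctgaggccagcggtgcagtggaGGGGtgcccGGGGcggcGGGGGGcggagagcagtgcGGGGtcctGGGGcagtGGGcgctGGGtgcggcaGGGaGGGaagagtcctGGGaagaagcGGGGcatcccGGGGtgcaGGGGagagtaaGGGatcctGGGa
RPS16 origin 1: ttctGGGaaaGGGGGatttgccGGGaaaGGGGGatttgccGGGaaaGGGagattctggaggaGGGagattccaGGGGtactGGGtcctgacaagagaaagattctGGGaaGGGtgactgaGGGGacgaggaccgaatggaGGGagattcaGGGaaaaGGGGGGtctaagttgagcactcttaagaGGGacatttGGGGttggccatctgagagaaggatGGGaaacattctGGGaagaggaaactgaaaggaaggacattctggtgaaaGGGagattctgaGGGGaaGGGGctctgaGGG
RPL22 origin 2: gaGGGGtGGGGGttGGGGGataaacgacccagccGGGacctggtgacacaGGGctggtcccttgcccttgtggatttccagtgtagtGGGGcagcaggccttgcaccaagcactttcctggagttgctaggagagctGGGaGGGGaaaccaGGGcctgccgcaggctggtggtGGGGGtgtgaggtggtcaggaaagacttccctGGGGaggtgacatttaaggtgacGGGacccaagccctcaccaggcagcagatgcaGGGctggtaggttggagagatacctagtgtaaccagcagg
The runs of G cover 20.3% of the RPS2 window, 27% of the RPS16 window, and 16.3% of the RPL22 window. Over the central 300 bases of all 30197 WT origins the median was 14.3%, and 99.5% of the windows held such a run, while over the 31 WT origins at RP genes the median was 17.0%.

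A pair of promoters shows an RP gene with an origin at the start site and another without. They are examples, and G runs were not compared between RP genes with and without an origin. RPL38 has an origin over its start in all 4 lists, and RPL41, whose promoter has the lowest GC content of all RP genes, has none in its window. The windows run from 250 bases before to 20 bases into the gene (chr17:74203332-74203601 and chr12:56116340-56116609, both plus strand), with runs of 3 or more G in capitals.
RPL38 promoter: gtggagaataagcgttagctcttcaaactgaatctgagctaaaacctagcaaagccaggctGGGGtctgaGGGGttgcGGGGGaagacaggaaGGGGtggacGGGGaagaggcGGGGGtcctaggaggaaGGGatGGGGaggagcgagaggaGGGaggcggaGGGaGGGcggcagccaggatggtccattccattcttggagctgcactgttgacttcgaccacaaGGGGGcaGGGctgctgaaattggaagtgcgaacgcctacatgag
RPL41 promoter: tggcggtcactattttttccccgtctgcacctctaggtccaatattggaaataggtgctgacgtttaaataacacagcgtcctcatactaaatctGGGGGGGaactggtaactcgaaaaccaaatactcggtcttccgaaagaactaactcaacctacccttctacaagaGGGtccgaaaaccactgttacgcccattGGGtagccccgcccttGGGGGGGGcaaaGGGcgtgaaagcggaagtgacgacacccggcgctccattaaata
The runs cover 18.5% of the RPL38 window and 8.89% of the RPL41 window. The median was 6.67% over the windows of all 19111 genes and 4.44% over those of the 77 RP genes, and at least 1 run lay in 96.8% and 92.2% of them.

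The share of RP genes with an origin lay below that of protein-coding genes in each line. In WT cells, 20 of 77 RP genes held an origin (26.0%, 95% Wilson interval 17.5 to 36.7), against 42.1% of protein-coding genes. ORC1Δ cells had 23 such genes (29.9%), ORC2Δ cells 27 (35.1%), and ORC5Δ cells 30 (39.0%), against 43.6%, 47.0%, and 49.6% of protein-coding genes. The lists grow in the same order, from 30197 origins in WT to 41332 in ORC5Δ, and the part of that growth in the number of RP genes was not tested.

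RP genes are short, with a median gene body of 5548 bp against 27877 bp for protein-coding genes, and a short window has less room for an origin. Among genes with a body of at most 20 kb, an origin was found at 15 of 65 RP genes in WT (23.1%, interval 14.5 to 34.6) and at 36.6% of 7904 protein-coding genes. The corresponding shares were 26.2% and 35.1% in ORC1Δ, 30.8% and 40.7% in ORC2Δ, and 35.4% and 42.3% in ORC5Δ. In WT the interval of the RP share lies below the share of the short genes, whereas in the 3 knockout lines it includes it. RP genes of this length are still shorter, with a median of 4558 bp against 8023.5 bp. Per 100 kb of window, RP genes with short bodies held 3.74 origins in WT against 4.15 for all short genes, 4.05 against 3.87 in ORC1Δ, 4.68 against 4.89 in ORC2Δ, and 4.83 against 5.14 in ORC5Δ. Without the limit on length the density was higher at RP genes in each line, with 2.79 against 1.47 in WT, 3.24 against 1.58 in ORC1Δ, 3.78 against 1.79 in ORC2Δ, and 3.96 against 1.97 in ORC5Δ. That comparison sets RP genes beside genes with longer bodies. Among genes with a body of at most 20 kb, the RP density was lower in WT, ORC2Δ, and ORC5Δ and higher in ORC1Δ. Intervals on shares treat genes as independent and cover sampling of genes only.

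Genes for both subunits took part. In WT, 13 of 46 genes for large-subunit proteins and 7 of 31 for small-subunit proteins held an origin, and in ORC5Δ cells 20 and 10 did. Over all lists together, 21 of the large-subunit genes and 10 of the small-subunit genes had an origin, and 19 genes had one in every list. The genes with the most WT origins were RPL36 with 4, RPL28 with 3, and RPL18 with 2, the last being one of several genes with that number.

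The remaining 46 RP genes (59.7%) had no origin in any of the 4 lists. The same share over all protein-coding genes, with the 4 lists together, was not computed. The count therefore says nothing particular of RP genes. Among the 25 that encode large-subunit proteins were RPLP0, RPLP1, and RPLP2, which form the stalk that recruits elongation factors, RPL5 and RPL11, which bind MDM2 together with 5S rRNA, and RPL10L, a testis-enriched copy of the X-linked RPL10. The others were RPL3, RPL4, RPL6, RPL9, RPL10A, RPL13, RPL14, RPL19, RPL21, RPL23, RPL24, RPL26, RPL27, RPL30, RPL32, RPL35, RPL35A, RPL37, and RPL41. Among the 21 for the small subunit were RPS6, the target of S6 kinase, RPSA, also known as the laminin receptor, RPS27A, made as a fusion to ubiquitin, and RPS27L, a p53-responsive paralog. The others included RPS3, RPS3A, RPS7, RPS10, RPS12, RPS13, RPS15, RPS15A, RPS18, RPS20, RPS23, RPS25, RPS27, RPS28, and RPS29. A list holds only peaks called in both replicates, so absence means that no such peak was called, not that no nascent DNA was present.

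The 46 RP genes without an origin lay at varied distances from the nearest origin. Their gaps were not compared with those of other genes, so whether they lie in stretches poor in origins was not tested. The gap from the annotated gene body to the nearest edge of an origin of any line had a median of 20516.5 bp and ranged from 2151 bp at RPS13 to 208636 bp at RPS27A, and it was over 20 kb at 23 of the 46 genes. To the nearest WT origin the median gap was 58768 bp. At RPS27A the nearest WT origin was 317498 bp away and the nearest ORC2Δ origin 462974 bp.

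The exons of RP genes resemble the processed copies of them that are scattered over the genome, which can affect how reads map there. The share of 31-base words of the window found at 1 place in hg38 had a median of 84.5% at genes with an origin and 83.1% at genes without. Over exons alone the medians were 61.2% and 42.6%, and the shares were lowest at RPL21 (0%), RPS3A (0.871%), and RPS10 (3.43%), which had no origin. Low shares were also found at genes with an origin. They were 3.52% at RPL17, which had an ORC5Δ origin, and 9.4% at RPS2 and 12.8% at RPL7A, which had origins in all 4 lists. How reads that map to several places were treated is not given in the sources used here, and the part of this in the absence of peaks was not tested.

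**Figure D1:**
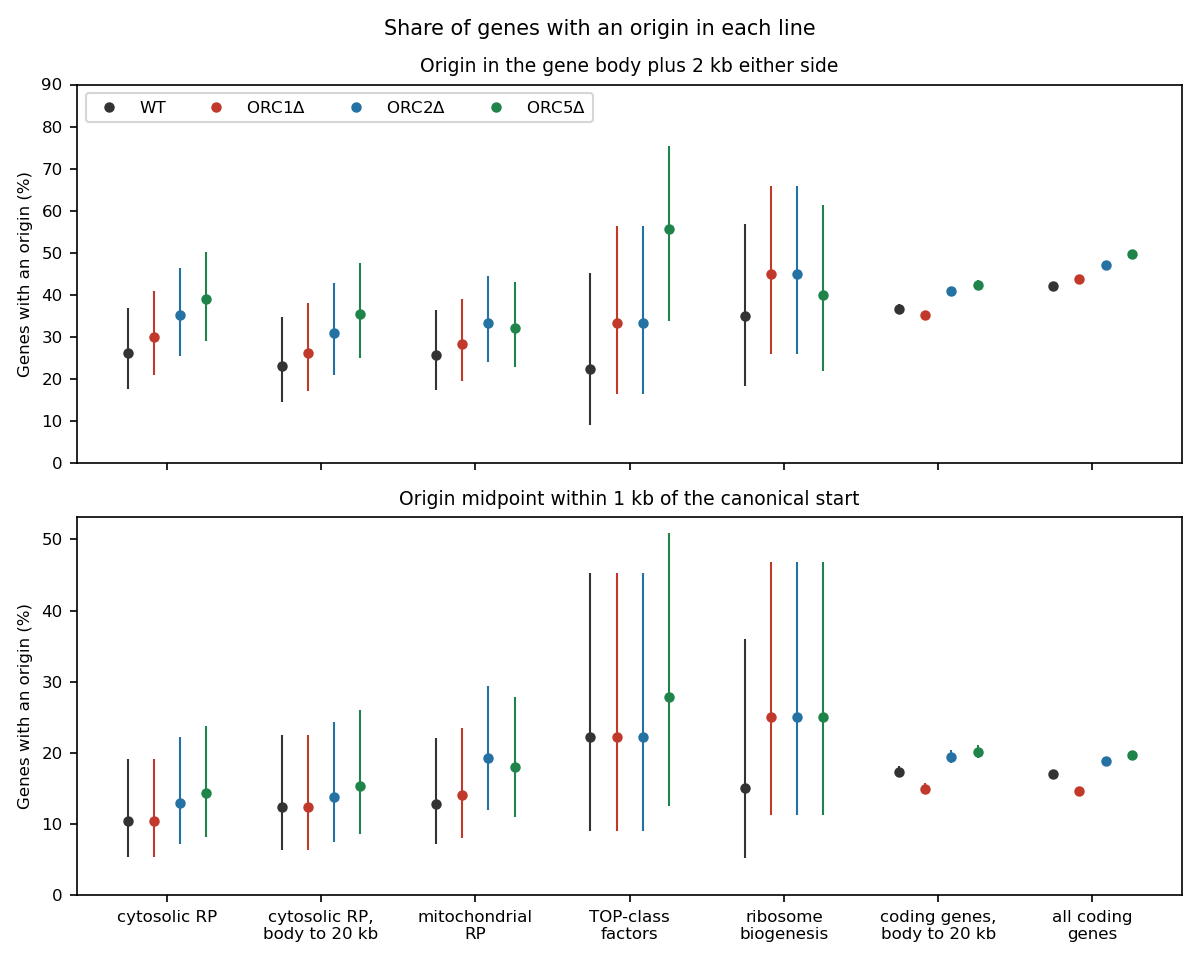
Share of genes with an origin, in percent, in WT (black), ORC1Δ (red), ORC2Δ (blue), and ORC5Δ (green) cells, with 95% Wilson intervals as lines, for origins in the gene body plus 2 kb (upper panel) and for origins whose midpoint is within 1 kb of the canonical start (lower panel). The RP share in the upper panel goes from 26.0% in WT to 39.0% in ORC5Δ and stays below the 42.1% to 49.6% of all coding genes.

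Other genes of the translation machinery gave shares with wide intervals. Mitochondrial RP genes, which build the ribosome of the mitochondrion, held an origin at 20 of 78 genes in WT (25.6%), 22 for ORC1Δ (28.2%), 26 for ORC2Δ (33.3%), and 25 for ORC5Δ (32.1%), although their median body of 11940.5 bp is longer. Translation factors of the TOP class, such as EEF2 and NPM1, had one at 4, 6, 6, and 10 of 18 genes, in the same order of lines. Ribosome biogenesis factors, such as FBL and NCL, had one at 7, 9, 9, and 8 of 20 genes. The interval of each of these WT shares overlaps that of the cytosolic RP genes.

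Few RP genes had an origin at their own start site. The midpoint of an origin lay within 1 kb of the canonical transcription start site of 8 RP genes in WT (10.4%, interval 5.36 to 19.2), 8 for ORC1Δ (10.4%), 10 for ORC2Δ (13.0%), and 11 for ORC5Δ (14.3%). Over all protein-coding genes the shares were 17.0%, 14.7%, 18.9%, and 19.7%, and the WT, ORC1Δ, ORC2Δ, and ORC5Δ shares of the RP genes each have an interval that includes the share of all genes. In WT these were RPL7A, RPL8, RPL12, RPL36, RPL38, RPS16, RPS19, and RPS21. RPS24 and RPS26 joined them in ORC2Δ and ORC5Δ, and RPL13A in ORC1Δ and ORC5Δ, while RPL12 was missing from the ORC1Δ list. Counted over origins, 8 of the 31 WT origins at RP genes (25.8%, interval 13.7 to 43.2) had their midpoint within 1 kb of the annotated gene start, against 15.03% of the 19117 WT origins in windows of protein-coding genes, whose windows are longer. With the gene body alone as the window, this share was 11.8%.

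The origins of the 4 lists fell into 46 loci at 31 genes, a locus being the joined extent of overlapping origins. The loci were spread over 11 in the upstream flank, 9 in the downstream flank, 13 in the annotated body but outside the canonical transcript, 5 in an intron and 5 in an exon of the canonical transcript, and 3 in an exon of another transcript. The locus of RPL31 in the last class also overlaps an intron of the canonical transcript, so that 11 of the 46 overlapped the canonical transcript. Coding sequence was touched at 6 loci, and no locus overlapped a snoRNA gene. Of the 26 RP genes that host at least 1 snoRNA gene, 9 had an origin in any list. The overlap of all origins with snoRNA genes was not computed, so the absence of overlap says nothing particular of RP genes. Another protein-coding gene covered 17 loci, an exon of it lay at 14, and at 17 the start of another gene was nearer than that of the RP gene.

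Several loci therefore sit at the promoter of a neighbour. The locus downstream of RPL23A lay 106 bp from the start of TLCD1, that downstream of RPL3L 146 bp from MSRB1, and that at the end of RPL18 186 bp from FAM83E. The locus downstream of RPS2 lay 567 bp from the start of NDUFB10, which encodes a subunit of respiratory complex I. Upstream of RPL7A, the loci of the different lists joined to 1 stretch 580 bp from the start of MED22, a divergent Mediator subunit gene. The annotated body of RPL37A spans 80356 bp because a long transcript is annotated, and its loci lay 46601 and 61288 bp from the canonical start.

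**Figure D2:**
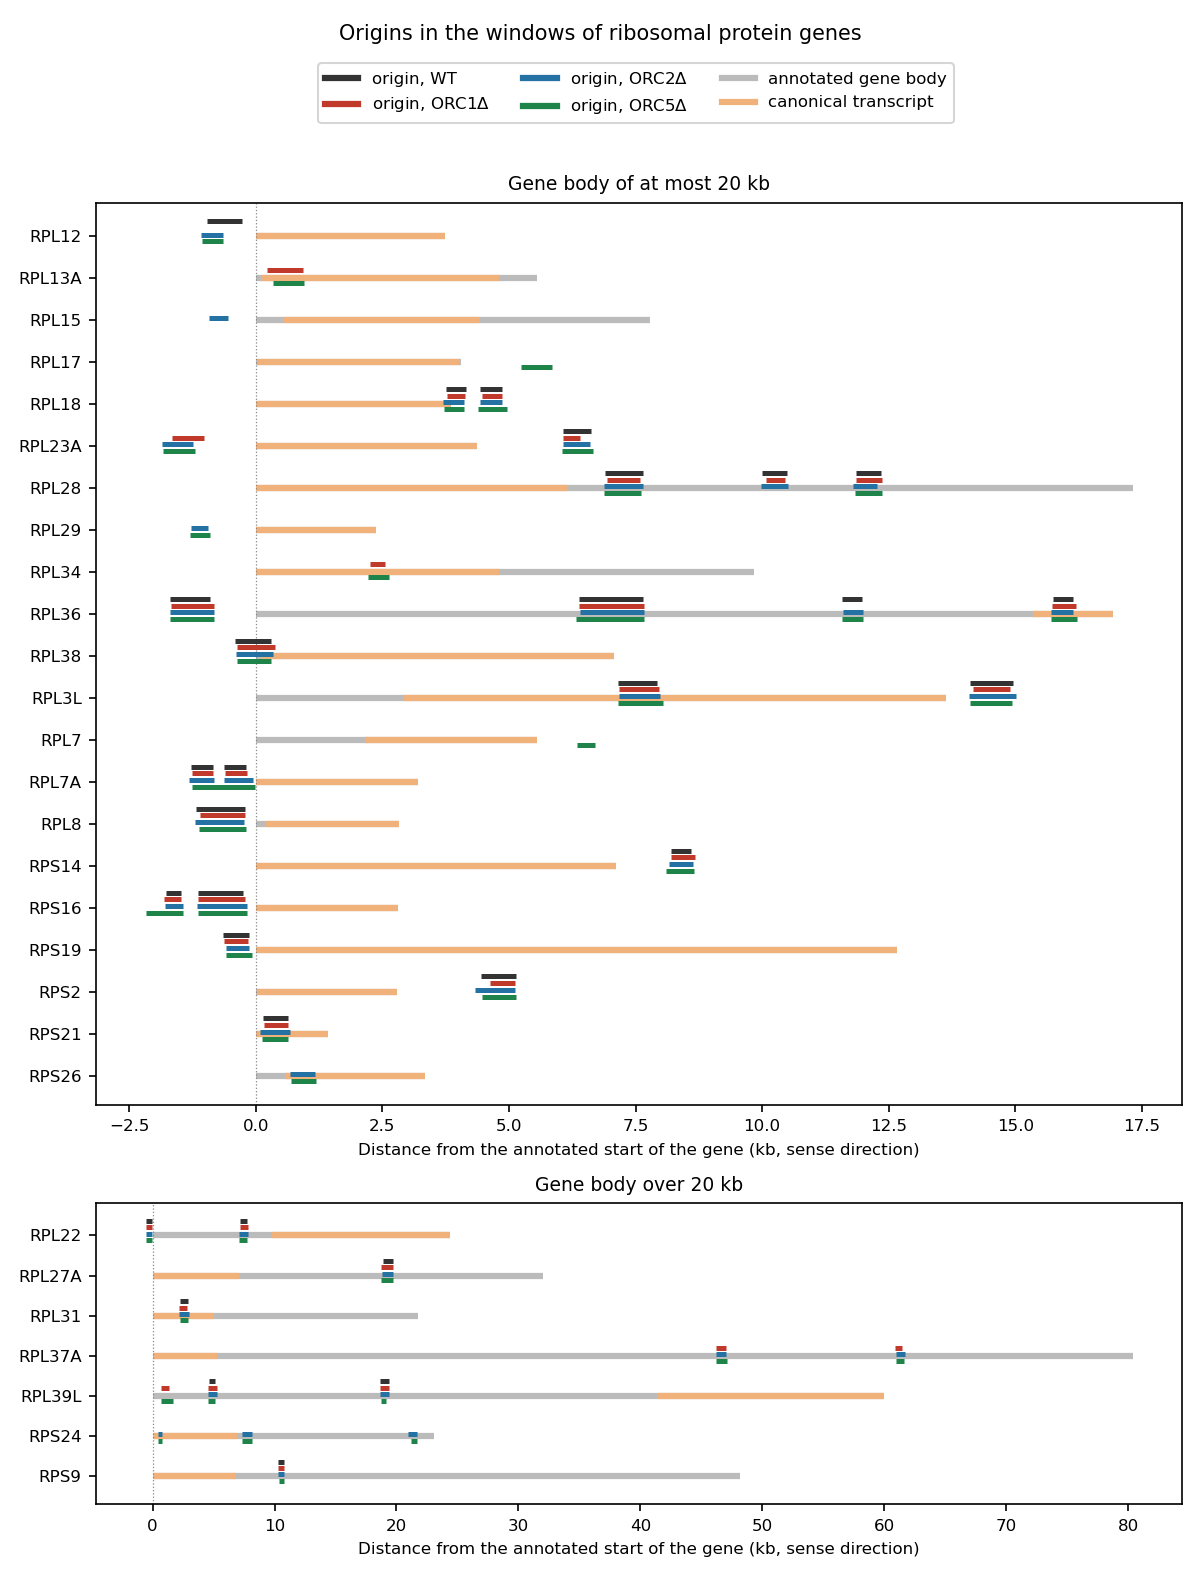
Positions of the origins at 28 of the 31 RP genes that have any, as distance in kb from the annotated gene start in the sense direction, with WT, ORC1Δ, ORC2Δ, and ORC5Δ origins as black, red, blue, and green bars, the gene body in grey, and the canonical transcript in orange. Most genes show stacked bars at the same place in all lines (26 of the 43 loci drawn), and many bars lie outside the orange transcript.

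Chromosome 19 carried 16 of the 46 loci. It has 12 RP genes, of which 9 had an origin in some list, and 6 held an origin in WT, 8 in each of ORC1Δ and ORC2Δ, and 9 in ORC5Δ. This chromosome is gene-dense, and 65.9% of its protein-coding genes held a WT origin against 42.1% over all chromosomes. Of the 65 RP genes elsewhere, 14 held a WT origin and 21 an ORC5Δ origin.

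Nearly all WT origins at RP genes were found again in the knockout lines. Of 31, 28 overlapped an origin in all 3 knockout lists (90.3%, interval 75.1 to 96.7), against 60.4% of all WT origins. The 31 origins lay at 20 genes, so they are not independent as the interval assumes. The WT origins as a whole include those outside genes, and the difference was not tested. Counterparts were found for 29 in ORC1Δ, 31 in ORC2Δ, and 30 in ORC5Δ. None lacked a counterpart in every knockout line, a share of 0 of 31 whose interval reaches 11.0%, against 8.17% of all WT origins. The WT origins of RPL12 and of 1 locus of RPL36 had no counterpart in ORC1Δ, and 1 of RPL28 had none in ORC5Δ. At the level of genes, all RP genes with a WT origin kept an origin in their window in ORC2Δ and ORC5Δ cells, and all but RPL12 in ORC1Δ cells.

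Other loci appeared in the knockout lists without a WT peak. The knockout lists are longer than the WT list, and the shares of all genes with such gains or losses were not computed. The gains and losses below therefore say nothing particular of RP genes. RPL37A had an origin in all 3 knockout lines and none in WT, and no RP gene showed the reverse. It has a pair of such loci, and a further locus of this kind lies upstream of RPL23A, which has a WT origin elsewhere. RPL29, RPS24 (3 loci), and RPS26 had an origin in ORC2Δ and ORC5Δ only, RPL13A and RPL34 and 1 locus of RPL39L in ORC1Δ and ORC5Δ only, RPL7 and RPL17 in ORC5Δ only, and RPL15 in ORC2Δ only.

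Where a locus lacked a WT peak, WT reads were nevertheless counted there. At the RPL37A loci, 130 WT reads stood against 145 in ORC1Δ, and 123 against 154. In WT RPM per kb of origin these loci had 24.0 and 38.1, and 87.4% and 37.0% of all origins of that table were above them. At the RPS24 locus near the start, 63 WT reads stood against 84 in ORC2Δ, for a log2 fold of 0.18 (-0.31 to 0.68, a 95% interval by Clopper and Pearson). A peak missing from a list thus did not go with an absence of reads at these loci. All folds are ratios of RPM, the reads scaled to all reads of the line in the table, and their intervals cover counting error only, since reads of a PCR-amplified library are not independent molecules.

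In WT reads, the origins at RP genes were close in strength to all origins of the same table, both including origins called only in the knockout line. Reads in WT, in RPM per kb of origin, had a median of 37.4 over the 38 origins of the ORC1Δ table against 33.9 over all origins, 34.7 against 31.9 in the ORC2Δ table, and 32.9 against 30.3 in the ORC5Δ table. The strongest was that upstream of RPL8, whose protein lies near the peptidyl transferase centre, with 69.4 RPM per kb as a mean over the tables. Only 3.26% to 3.89% of all origins were above it. It held 452 WT reads against 457 in ORC1Δ, 455 against 530 in ORC2Δ, and 453 against 542 in ORC5Δ, with log2 folds of -0.04, -0.01, and -0.05.

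Among the next origins by WT level were those of RPL3L, a copy of RPL3 made in heart and skeletal muscle, with 62.3 RPM per kb, RPS16 with 56.8, RPL22 with 56.3, RPL38 with 49.1, RPS21 with 47.2, RPL18 with 44.1, RPS2 with 43.8, and RPL36 with 43.6. Among these, the origins of RPL8, RPS16, RPL38, and RPS21 lay within 1 kb of the start of the gene. The weakest loci were those of RPL13A with 18.3, RPL17 with 19.2, and RPL34 with 20.4, all absent from the WT list. The RPL34 locus held as few as 44 WT reads.

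Folds over the RP origins were small in each knockout line. Their median log2 fold was 0.06 for ORC1Δ (quartiles -0.29 to 0.23), 0.01 for ORC2Δ (-0.06 to 0.19), and 0.08 for ORC5Δ (-0.07 to 0.18), against -0.01, -0.04, and -0.00324 over all origins. All 3 tables share the WT reads.

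At the 1.5-fold change that the study used, 2 of 38 RP origins were up in ORC1Δ, where 7.04% of all origins were up, and 1 was down, where 3.95% were. In ORC2Δ cells 0 of 42 were up and 0 down, against 4.66% and 3.58% of all origins. In ORC5Δ cells 0 of 45 were up and 0 down, against 2.08% and 0.68%. Counts this low among 38 to 45 origins lie near the shares of all origins and say nothing particular of RP genes.

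The counting intervals were read against all origins in the same way. In ORC1Δ, 7 RP origins had an interval above 0 and 7 below it, where 14.6% and 14.5% of all origins had. In ORC2Δ the counts were 4 and 2, against 10.1% and 11.2%, and in ORC5Δ they were 3 and 1, against 5.84% and 4.76%.

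An origin that was up in ORC1Δ lies upstream of RPL36, a large-subunit gene, at -1260 bp from the annotated start and -16608 bp from the canonical start, where negative distances are upstream. It held 203, 203, and 204 WT reads against 328 in ORC1Δ, 337 in ORC2Δ, and 294 in ORC5Δ. The log2 folds were 0.63 (0.37 to 0.89), 0.50 (0.24 to 0.76), and 0.22 (-0.04 to 0.48), so the 1.5-fold line at 0.585 was passed in ORC1Δ alone. The 3 other loci of the gene did not share these values. The second had log2 folds of 0.13 in ORC1Δ and 0.15 in ORC5Δ, and 325 reads in WT against 382 in ORC2Δ, which is even in RPM. The third gave -0.52 (-0.94 to -0.11), -0.16, and -0.10. The fourth, 614 bp into the canonical transcript, gave 0.07, -0.05, and 0.27. Neither of the origins that were up lay in the window of a canonical RP transcript plus 2 kb, with which 0 RP origins were up.

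The origin downstream of RPS2, a small-subunit protein at the mRNA entry of the ribosome, was the lowest. It held 205 WT reads against 124 in ORC1Δ, a log2 fold of -0.79 (-1.12 to -0.46). In the other lines the reads were nearly even, with 214 against 242 in ORC2Δ (-0.06, -0.33 to 0.22) and 205 against 231 in ORC5Δ (-0.14, -0.41 to 0.14). Of 108 pairs of lines at the RP loci, only those of ORC1Δ with ORC2Δ and with ORC5Δ at this locus had intervals that did not overlap. How often this occurred over all origins was not computed. The locus has a GC content of 63.3%, and after subtraction of the trend of the fold with GC content its value in ORC1Δ was -0.53, short of 1.5-fold. With the midpoint of an origin required to lie in the window, this locus drops out, and 1 RP origin was up and 0 were down in ORC1Δ.

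A locus of RPL3L had an interval above 0 in every line, and RPL38 was alone in having one below 0 in every line. The share of all origins with such intervals in every line was not computed, so these loci say nothing particular of RP genes. The lines are also not independent here, as each is compared with the same WT reads. The RPL3L locus, in an intron of the gene, held 346 WT reads in each table against 444, 486, and 513, with log2 folds of 0.30 (0.09 to 0.51), 0.26 (0.05 to 0.46), and 0.26 (0.06 to 0.46). RPL38, known for its part in the translation of Hox mRNAs, has its origin over the first exon, at the promoter printed above. Its WT reads of 251, 248, and 246 stood against 197, 236, and 247, with log2 folds of -0.41 (-0.69 to -0.13), -0.31 (-0.57 to -0.04), and -0.30 (-0.56 to -0.04). The raw reads of the last pair are nearly equal, and the fold arises from the larger total of the ORC5Δ library, 8523971 against 6878409 reads.

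Further loci passed the counting interval in 1 or more lines. The RPL22 locus at the annotated start lay at -10097 bp from the canonical start. It went from 137 to 100 reads in ORC1Δ (-0.51, -0.90 to -0.13) and from 136 to 118 in ORC2Δ (-0.44, -0.81 to -0.07), and had 139 in WT and 139 in ORC5Δ (-0.31, -0.66 to 0.04). RPL39L, a testis-enriched copy of the X-linked RPL39, had 3 loci in its long annotated body, all above 0 in ORC1Δ with 0.36, 0.40, and 0.39. Their values were 0.01 and 0.16 for the first and second in ORC2Δ, and -0.08, 0.15, and 0.18 in ORC5Δ. RPL13A, part of the GAIT complex that silences inflammatory mRNAs, went from 82 to 128 reads in ORC1Δ (0.58, 0.17 to 1.00), just below 1.5-fold. In ORC1Δ, intervals below 0 were also found for RPS21 (-0.38), the downstream locus of RPL23A (-0.42), and the downstream locus of RPL3L (-0.34). In ORC2Δ, RPS16 had 507 reads against 366 in WT (0.24, 0.04 to 0.43), and in ORC5Δ the RPL17 locus had 136 against 81 (0.44, 0.03 to 0.85).

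**Figure D3:**
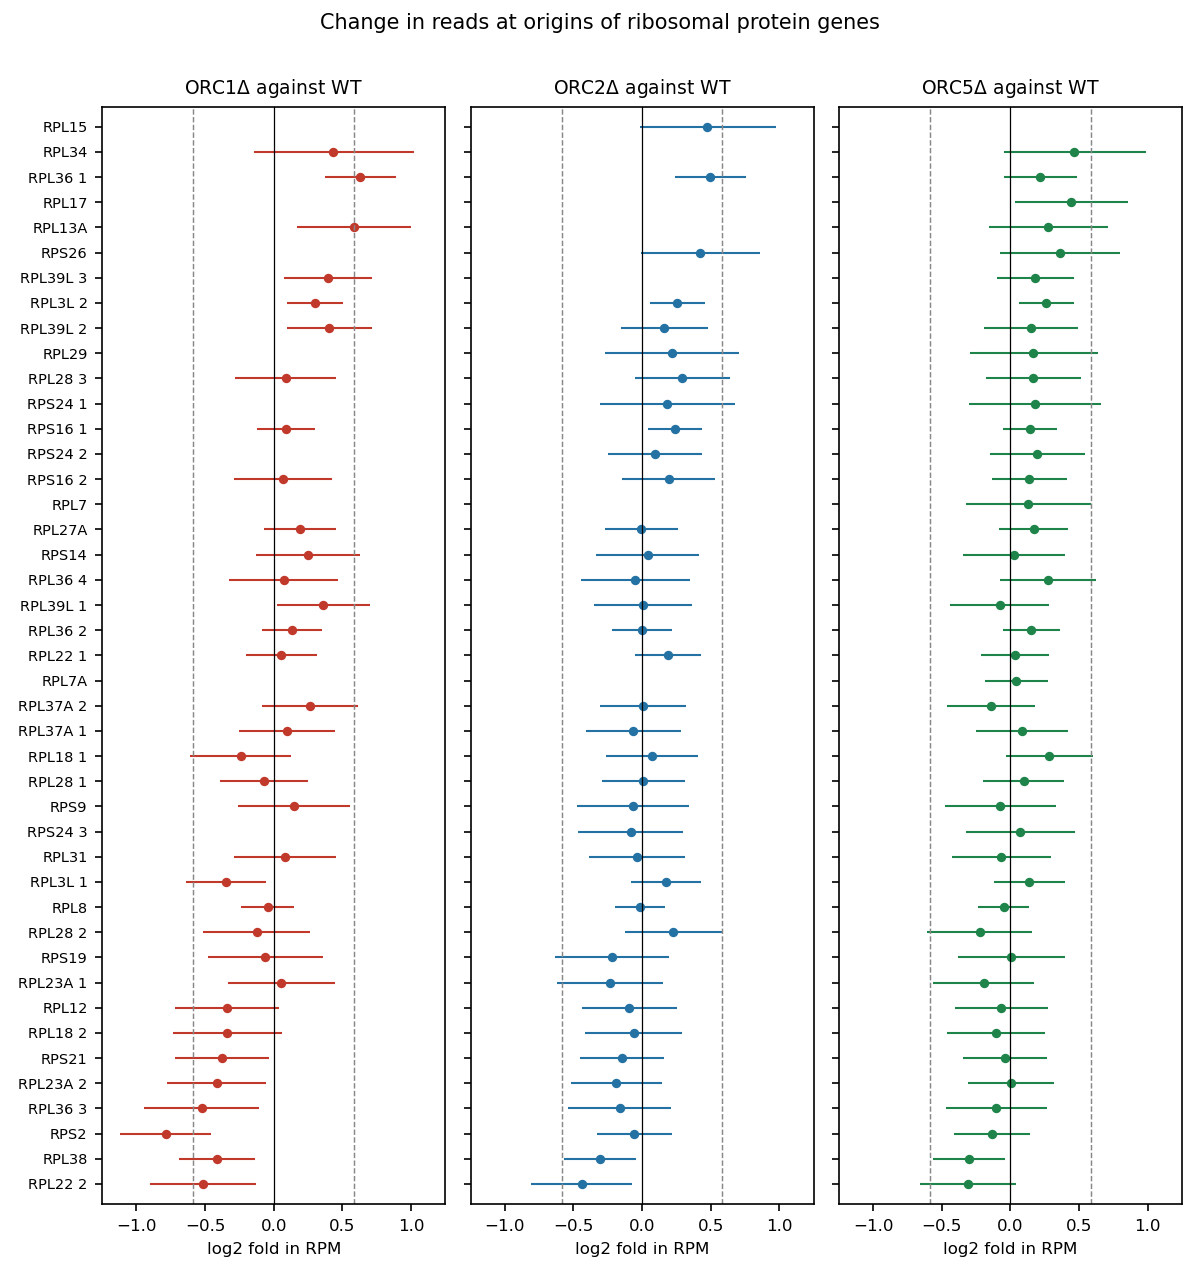
Log2 fold in RPM of the RP origins at 43 of the 46 loci in ORC1Δ, ORC2Δ, and ORC5Δ cells against WT, with 95% Clopper-Pearson intervals as lines and the 1.5-fold change as dashed lines; numbers after a symbol tell its loci apart, and a locus without a value had no single origin in that table. The first locus of RPL36 is above the upper dashed line and RPS2 below the lower one in ORC1Δ only.

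At RPL7A the ORC1Δ and ORC2Δ tables held a pair of origins each, with log2 folds of -0.30 and -0.22 in ORC1Δ and -0.22 and 0.22 in ORC2Δ, and the ORC5Δ table held 1 joined origin with 0.04. All other loci drawn in the plot of folds had intervals that included 0 in each line that had a value. Among them were some with few reads and a high fold, such as RPL15 with 57 WT reads against 93 in ORC2Δ (0.47, -0.02 to 0.97), RPL34 with 52 against 89 in ORC5Δ (0.47, -0.04 to 0.99), and RPS26 with 75 against 118 in ORC2Δ (0.42, -0.01 to 0.86).

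Of the 33 loci with a value in every line, 9 were above 0 in all 3 and 8 below 0 in all 3. The sign shared by the 3 lines is not independent, as they share the WT reads. The shares of all origins with the same sign in all 3 lines were not computed, so these counts say nothing particular of RP genes. The locus of RPS19, the gene most often mutated in Diamond-Blackfan anaemia, had 98 reads in WT and 98 in ORC1Δ (-0.06), 99 and 100 for ORC2Δ (-0.22), and 102 and 127 for ORC5Δ (0.01). Its intervals all include 0.

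Translation and biogenesis genes outside the RP set had similarly small folds. Over 50, 52, and 49 origins of mitochondrial RP genes, the median log2 fold was 0.01 in ORC1Δ, -0.01 in ORC2Δ, and 0.03 in ORC5Δ, with 1 origin up and 0 down in ORC1Δ and 0 of either in the other lines. Over the 10, 9, and 16 origins of TOP-class factors the medians were -0.03, 0.02, and 0.04, with 0 up or down. Over the 23, 24, and 24 origins of biogenesis factors they were -0.08, 0.01, and 0.02, with 0 up and 2 down in ORC1Δ, 1 up and 2 down in ORC2Δ, and 0 up and 1 down in ORC5Δ.

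Sequence went with the fold in ORC1Δ. GC skew, the excess of G over C as a share of both, was taken without its sign. Across the 38 RP origins its Spearman correlation with the log2 fold was 0.68, and that of GC content was -0.64, against 0.50 and -0.49 across all 42162 origins. In ORC2Δ these were 0.34 and -0.43 at RP origins and 0.22 and -0.13 over all, and in ORC5Δ 0.20 and -0.29 against 0.25 and -0.11. They are descriptions across origins of 1 pair of merged libraries, which are not independent replicates.

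The origin of RPL36 that was up stands at the high end of skew, with 0.77 in the ORC1Δ table. It holds tandem copies of ATCC, searched on both strands as 4 or more exact copies without a break, with any of the bases first. A further locus of RPL36, the second, holds such a tandem of 8 copies, with a log2 fold of 0.13 in ORC1Δ and a skew of 0.00403 over the whole locus. In all, 3 of the 46 loci held it. Of all origins of the ORC1Δ table, 2.43% held the repeat, and 47.0% of those were up by 1.5-fold, against 6.05% of origins without it. The repeat was present in 16.2% of all origins that were up. The 2 RP origins that were up in ORC1Δ held the repeat, so 0 were up there without such origins. In ORC2Δ and ORC5Δ, 0 were up with them as well. The study reported this repeat as enriched at origins up in all its knockout lines. That result came from these same data, so the RP origins give it no separate support.

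**Figure D4:**
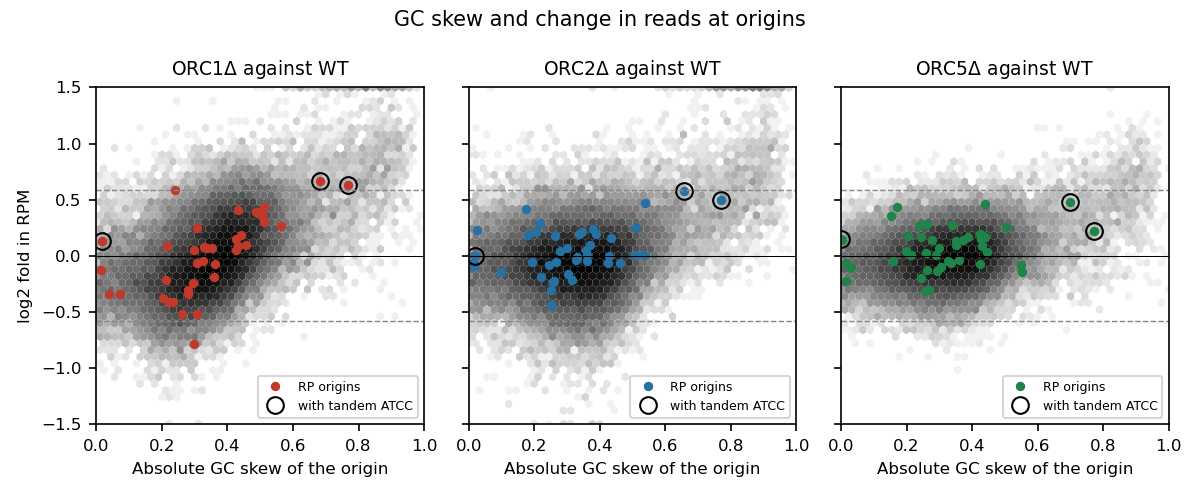
Log2 fold in RPM against the absolute GC skew of the origin in the 3 tables, with all origins as grey hexagons (darker for more, on a log scale; values beyond 1.5 drawn at the edge), RP origins as coloured points, and rings around those with tandem ATCC. In ORC1Δ the RP points rise with the skew (Spearman 0.68), and a pair of ringed points lies above the upper dashed line of 1.5-fold.

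Further properties were compared between RP origins and all origins of the WT list. Their median width was 534 bp against 525 bp, their GC content 57.8% against 54.8%, and their absolute GC skew 0.31 against 0.34. A G-quadruplex motif (4 runs of 3 or more G with 1 to 7 bases between, on either strand) lay in 17 of 31 (54.8%) against 56.5%. The ratio of observed to expected CpG had a median of 0.42 at RP origins and 0.27 at all origins, and 0.29 at origins of all protein-coding genes. These differences were not tested.

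RP promoters had a lower median GC content than those of all protein-coding genes. In the 1 kb around the canonical start, the median GC content was 57.9% over the 77 RP genes and 61.4% over protein-coding genes, and a G-quadruplex motif was found in 42.9% and 60.6%. The 11 RP genes with an origin within 1 kb of the start in any list had a median GC content of 62.1%, and all 11 held the motif, while the 66 others had 56.9% and 22 held it. Protein-coding genes as a whole were split in the same direction, with 65.9% GC and the motif at 83.0% of those with such an origin, and 59.7% and 53.1% for the others. The motif was counted in that 1 kb and not in the origins. Of the RP loci near a start, those of RPL36, RPL38, RPS19, and RPS26 held none, and the others held it. Within classes of GC content, an origin in any list lay within 1 kb of the start at 4 of 44 RP promoters with 50% to 60% GC (9.09%), against 18.7% of coding genes, and at 6 of 27 with 60% to 70% GC (22.2%), against 30.7%. None of the 5 RP promoters under 50% had one, where 3.91% of coding genes did. The only RP promoter at 70% or more, that of RPL8, had one, as did 42.4% of coding genes in this class. The distance of 1 kb is the same for every gene. Whether base composition accounts for the lower share near the start, or short windows for the lower share over whole windows, was not tested.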

How the data were processed

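SNS-seq reads of 8 samples, 2 biological replicates of each of 4 lines, were processed by the authors, whose processing notes name Trim Galore 0.6.4, Bowtie, MACS2, and bedtools and the build GRCh38 (hg38). MACS2 peaks were called in each replicate, and those found in both were deposited as 4 lists of positions without height. The authors also deposited 3 tables of counts, whole numbers of reads per joined origin of WT and 1 knockout line, without normalization and with replicates merged. The counting tool and the handling of duplicate reads and of reads that map to several places are not given in the sources used here.

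From these, RPM was computed with all reads of the line in the table as the total, without a pseudocount or a filter. Origins were called at 1.5-fold, and log2 folds were given 95% Clopper-Pearson intervals from the share of reads that came from the knockout line. Shares have 95% Wilson intervals. An overlap of 1 bp assigned an origin to a gene. Gene models were GENCODE release 44, and sequences were read from hg38. The calls were tried on simulated Poisson counts with known changes larger than the 1.5-fold threshold. Such counts hold no spread between replicates, so the error of the calls reported here was not measured. The members and lists were chosen with earlier results of these data known. Genes named in the text are those with the 10 highest WT levels, those called in a table, the 3 with the most WT origins, those without an origin, and those whose origins differ in presence between WT and all knockout lines; other loci are named where their interval excludes 0, and a few with wide intervals were picked after their values were seen. Alternatives changed the scaling, the window, the threshold, the filter, the symbols, and corrections for GC content and for origins within 5 Mb. Some RP genes enter the counts and medians but are not reported singly here. No test between lines was run, since the tables and lists used here merge the replicates, and precision is that of the counts. TMM factors came from edgeR 4.0.16 in R 4.3.3, sequences from samtools 1.23.1 and pysam 0.24.0, and all else from Python 3.11.15 (scipy 1.17.1, numpy 2.4.6, pandas 2.3.3, matplotlib 3.10.9).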

Additional observations from a re-analysis of the deposited data

How the results depend on the processing

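Of 179 alternative values for 17 results, 156 stayed within 1.5 times the count or within the interval of the value, and 23 moved. The count of RP origins up in ORC1Δ, 2 as reported, was 0 with the gene body alone, 0 with the canonical transcript plus 2 kb, 0 without origins that hold tandem ATCC, 1 with the midpoint inside the window, 7 at a log2 threshold of 0.32, and 0 at 2-fold. The count down in ORC1Δ, 1 as reported, was 0 with the gene body alone, 0 with the midpoint inside the window, 0 after subtraction of the trend with GC content, 9 at 0.32, and 0 at 2-fold. In ORC2Δ, where 0 were up, 1 was up with edgeR TMM factors, 1 with median-of-ratios size factors, 1 after subtraction of the GC trend, and 4 at 0.32, and 1 was down at 0.32. In ORC5Δ, where 0 were up, 4 were up at 0.32. With the gene body alone, RP genes with an origin numbered 12 for WT, 15 for ORC1Δ, 15 for ORC2Δ, and 17 for ORC5Δ. With the wider origins of each list, those not under its median width, the number for ORC1Δ was 15. The share of WT RP origins near the gene start was 11.8% with the gene body alone. Median log2 folds ranged over the alternatives from -0.06 to 0.11 (ORC1Δ), -0.00309 to 0.05 (ORC2Δ), and 0.06 to 0.10 (ORC5Δ). Signs of these medians near 0 were not stable: that of ORC1Δ, 0.06 as reported, was -0.05 with the gene body plus 5 kb and -0.06 with the canonical transcript plus 2 kb, and that of ORC2Δ, 0.01 as reported, was -0.00309 without the paralogs. The alternatives with the canonical transcript and without tandem ATCC were chosen after seeing the data. No paired analysis was possible because the tables and lists hold no values per replicate, and for the same reason no replicate could be left out. Depth limits the folds: the RPL34 locus had 44 WT reads and an interval from -0.15 to 1.03 in ORC1Δ.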
